A study of Homo sapiens with 8 samples.

Results

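Keratins are the intermediate filament proteins of epithelial cells, and their mRNAs were examined in HaCaT cells, an established line of human keratinocytes. Members were the protein-coding genes whose symbol is KRT followed by a number, with an optional letter. Keratin-associated proteins and other genes that only share the prefix were not taken. The rule gave 55 genes in RefSeq, of which 49 were among the 17131 genes of the expression table, and the other 6 were not analysed here. The 49 were divided by where they are usually expressed into 3 basal, 5 stress, 6 simple epithelial, 7 suprabasal, 6 mucosal or corneal and 22 hair and follicle keratins, and by protein type into 24 of type I and 25 of type II.

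All 8 libraries came from wild-type HaCaT cells under M5, a mixture of 5 cytokines (oncostatin M, TNF-α, IL-1α, IL-17A and IL-22) at 10 ng/mL each, which brings keratinocytes toward a psoriasis-like state. The study compared M5 alone with M5 plus OTS514, an inhibitor of the kinase TOPK, given at 10 nM from 12 h before the cytokines, which stayed on for 24 h. Of the libraries, 4 are titled M5_O5 and 4 are titled M5. The labels disagree on which of them received the inhibitor, since M5_O5 as a title points to the inhibitor, whereas the treatment field gives none for these 4 libraries and instead names a TOPK inhibitor for the 4 titled M5. Every direction below is therefore one between titles and not between treated and untreated cells. No culture without M5 was among the samples, and the labels do not say that the 4 libraries of a title came from separate cultures, so p-values measure the spread between these libraries. HaCaT is a single immortalized line, and in bulk RNA fewer cells of a kind cannot be told apart from less RNA per cell.

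Keratin filaments form only from pairs, with a type I partner for each type II partner. Basal cells of the epidermis carry KRT5 with KRT14, and cells that leave the basal layer switch to KRT1 with KRT10. KRT6 isoforms, KRT16 and KRT17 are low in resting epidermis and are induced in wounds and in psoriatic plaques, for which they serve as markers. KRT8 with KRT18 is the pair of simple epithelia, and KRT4 with KRT13 is that of inner mucosa such as the mouth and oesophagus.

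Total estimated counts ranged from 13708055 to 16922693 per library, and the smallest total belonged to M5 replicate 1. Keratins took between 1.64% and 2.05% of the counts. Keratinocyte markers were abundant in every library, with a summed level of 13333 to 16570 transcripts-per-million (TPM). The 6 fibroblast markers summed to 10.3 to 10.8 TPM in M5_O5 and 13.1 to 15.4 TPM in M5, nearly all of it COL1A1, while COL1A2 and COL3A1 were at 0 in all M5_O5 libraries and at no more than 14 counts in M5. Melanocyte and endothelial markers stayed under 1 TPM. Among immune markers only CD14 carried signal, at 44.8 to 54.3 TPM, and PTPRC and CD79A were at 0 throughout.

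The abundant keratin mRNAs were basal, stress and simple epithelial ones. KRT17, KRT14, KRT6A and KRT19 together held between 74.7% and 78.8% of all keratin TPM in each library. On the TPM scale, which corrects for transcript length and so allows genes to be set beside each other, KRT17 stood at 6547 ± 614 (SD, n = 4) in M5_O5 and 6490 ± 644 in M5. KRT14 followed at 4489 ± 405 and 5416 ± 291, KRT6A at 2625 ± 184 and 2611 ± 142, and KRT19 at 2051 ± 76.8 and 1938 ± 84.7. KRT5 was the fifth, at 1520 ± 111 and 1497 ± 193. These 5 were above 1000 TPM in every library, and 10 keratins were above 100 TPM, the others being KRT7, KRT15, KRT18, KRT8 and KRT16. KRT7 to KRT8 lay close together in M5_O5, from 868 ± 76.6 TPM for KRT7 through 675 ± 15.4 for KRT18 and 668 ± 32.3 for KRT15 to 619 ± 77.5 for KRT8, and the last 3 of these did not differ beyond their spread. The suprabasal and mucosal keratins were far lower, with KRT13 at 46.3 ± 9.05 TPM, KRT10 at 17.2 ± 4.59 and KRT1 at 9.67 ± 2.38 in M5_O5.

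**Figure D1:**
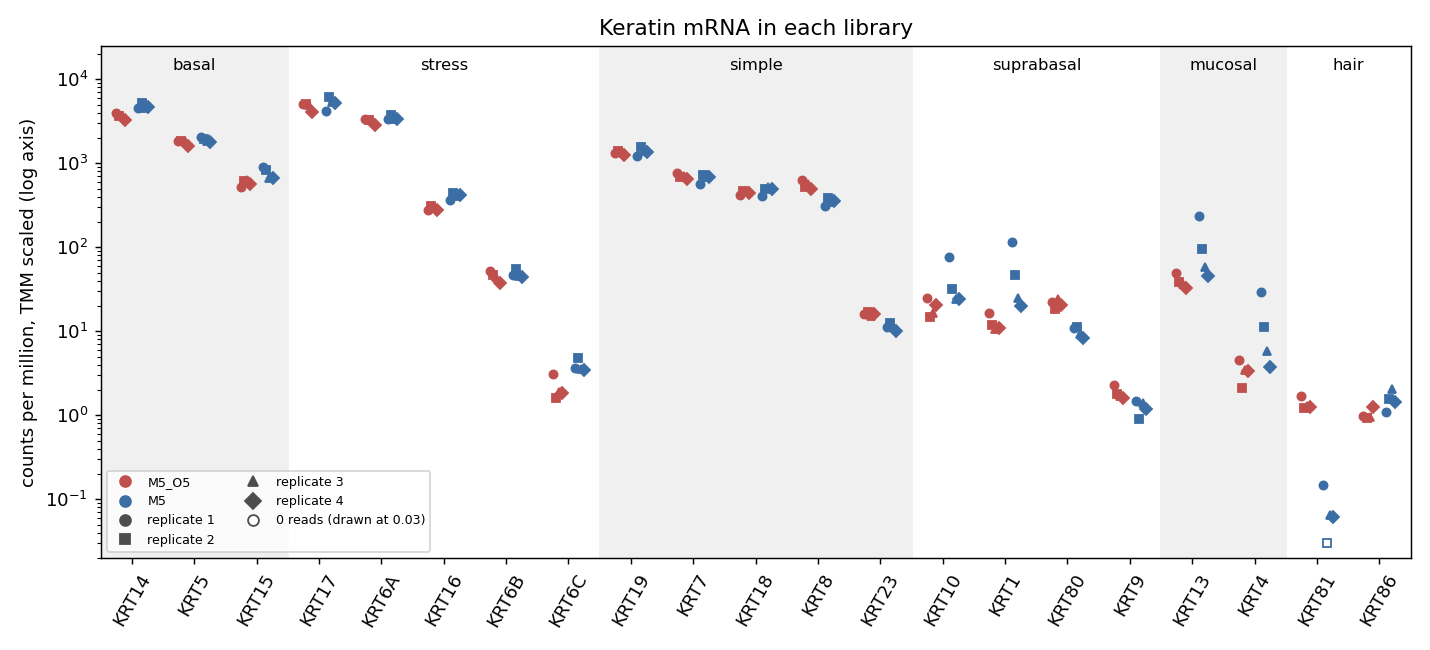
Level of each of the 21 tested keratins in each library, in CPM on a log axis, grouped by class; colours give the title, marker shapes give the replicate number, and the open symbol is a library without a read. KRT17, KRT14, KRT6A, KRT5 and KRT19 lie above 1000 in every library, and KRT1, KRT10, KRT13 and KRT4 spread widely among the M5 libraries, with replicate 1 on top.

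The remaining keratins were near or at the limit of detection. A test needed enough counts in at least 4 libraries, which 21 of the 49 keratins had. The other 28 never exceeded 14 counts in a library. KRT3, a corneal keratin, reached that value, KRT78 reached 8 and KRT74 reached 7, and KRT2, the keratin of the uppermost living layers, did not exceed 2 counts. No count was assigned to KRT12, KRT27, KRT36, KRT38, KRT72 or KRT84 in any library, which allows up to 3 counts in each. Of 22 hair and follicle keratins, 20 were among the untested.

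Several keratins are so alike that reads cannot be assigned to them with certainty, and a stretch of KRT6A and of KRT6C is shown because KRT6C had the highest share of sequence in common with other genes. The coding sequences of KRT81 and KRT86 were identical at 93.6% of aligned bases, and those of KRT6A and KRT6C at 97.9%. Each stretch is 60 coding bases of GRCh38 from GENCODE transcripts, written 5′ to 3′ on the strand of the gene, with the bases that differ between them in capitals. The KRT6A stretch is in exon 1 at chr12:52492694-52492753 and that of KRT6C in exon 1 at chr12:52473243-52473302, both on the minus strand and from coding base 436, with 5 differences. It was chosen for having the most differences of any stretch of 60 bases within an exon, so it is less alike than the rest. The whole coding sequences differed at 35 of 1695 aligned bases.
KRT6A: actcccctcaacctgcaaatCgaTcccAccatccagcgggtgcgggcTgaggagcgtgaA
KRT6C: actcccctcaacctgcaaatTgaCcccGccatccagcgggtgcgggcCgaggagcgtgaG
Of all runs of 50 bases in the transcript, 53.6% in KRT6C, 47.1% in KRT6B, 44.6% in KRT81, 40.5% in KRT86 and 39.1% in KRT6A also occurred in another gene. The share was 37.1% for KRT8 and 31.8% for KRT18, nearly all of it in pseudogenes, and 23.8% for KRT14, 22.0% for KRT16 and 17.4% for KRT17. KRT1, KRT4, KRT9, KRT10 and KRT23 shared no such run with another gene, and their counts do not meet this limit.

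The titles were compared by the quasi-likelihood test of edgeR on TMM-scaled counts of 12434 genes, with Benjamini-Hochberg adjustment over all of them and a threshold of 0.05. Fold changes are log2 values of M5_O5 over M5, each with its standard error (SE). Of the 21 tested keratins, 8 were lower in M5_O5 (38.1%, against 17.6% of all genes) and 5 were higher (23.8%, against 19.5%). At a fold change of at least 2, KRT1, KRT4, KRT13 and KRT10 were lower (19.0%, against 0.33%) and KRT81 and KRT80 were higher (2.87% of all genes were). All 4 M5_O5 libraries lay below all M5 libraries for 5 keratins (23.8%, against 15.8% of all genes) and above them for another 5 (23.8%, against 17.8%). The median log2 fold change of the tested keratins was −0.12, beside 0.01 for all genes. Scaling by library size alone moved the median of all genes to 0.13, and the TPM scales to 0.12 and 0.14, so the signs of small changes depend on the scaling. Among the 8 keratins that did not pass, those of KRT5, KRT17, KRT6B, KRT18 and KRT19 turned with library size alone and on the TPM scales, and that of KRT6A turned on the TPM scales. KRT81 passed the filter on counts through the M5_O5 libraries alone, where it is high, and so had to differ. Without it, 4 of 20 keratins were higher, 1 of them at least 2-fold and all 4 above every M5 library, and nothing is read from these counts.

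**Figure D2:**
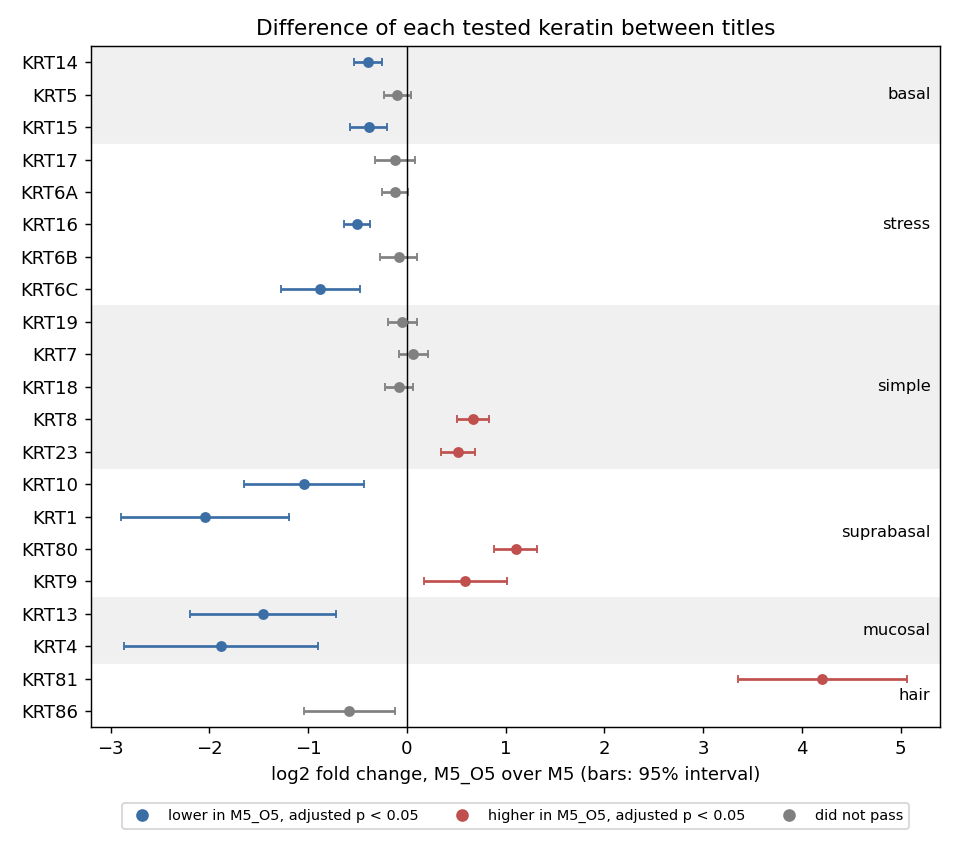
Log2 fold change of M5_O5 over M5 for each tested keratin, with bars for the 95% interval (4 libraries per title); blue points were lower and red points higher at an adjusted p under 0.05, and grey points did not pass. Within the suprabasal class KRT10 and KRT1 lie left of 0 and KRT80 and KRT9 right of it, and among simple keratins KRT8 and KRT23 stand to the right while KRT19, KRT7 and KRT18 lie near 0.

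Among the basal keratins, KRT14 and KRT15 were lower in M5_O5 and KRT5 did not pass. KRT14, the type I keratin of the basal layer, stood at 3925, 3660, 3642 and 3242 counts-per-million (CPM) in M5_O5 and at 4582, 5217, 4591 and 4653 CPM in M5. The groups did not overlap, and the log2 fold change was −0.40 (SE 0.073, edgeR adjusted p = 0.000868). KRT15, a type I basal keratin that also marks hair follicle stem cells, stood at 529, 619, 627 and 565 CPM against 907, 826, 667 and 660 CPM. Again no library crossed over, with a log2 fold change of −0.39 (SE 0.096, edgeR adjusted p = 0.0060), and with limma on log2(TPM + 1) KRT15 did not pass (−0.26, adjusted p = 0.117). KRT5, the type II partner of KRT14, stood at 1859, 1833, 1856 and 1594 CPM against 2082, 1960, 1821 and 1778 CPM, and here the groups overlapped. Its log2 fold change of −0.10 had a 95% interval from −0.24 to 0.04 (edgeR adjusted p = 0.299). The ratio of KRT14 to KRT5 TPM was 2.95 ± 0.086 in M5_O5 and 3.64 ± 0.30 in M5, without overlap. The median log2 fold change of the 3 basal keratins was −0.39.

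The calls of KRT14 and KRT15 were small changes in abundant mRNAs, and abundant mRNAs as a whole were lower in M5_O5. Of the 100 genes at a log2 CPM of 10 or more, 52.0% were lower and 3.0% were higher, with a median log2 fold change of −0.22, whereas the median was 0.25 among genes under a log2 CPM of 2. Once the dependence on level was removed from each library by a smooth fit, the log2 fold change of KRT14 was −0.16 (edgeR adjusted p = 0.0894) and that of KRT15 was −0.22 (edgeR adjusted p = 0.111), so neither passed. The changes of KRT16 and KRT8, also abundant, passed in that fit, at −0.36 and 0.83.

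**Figure D3:**
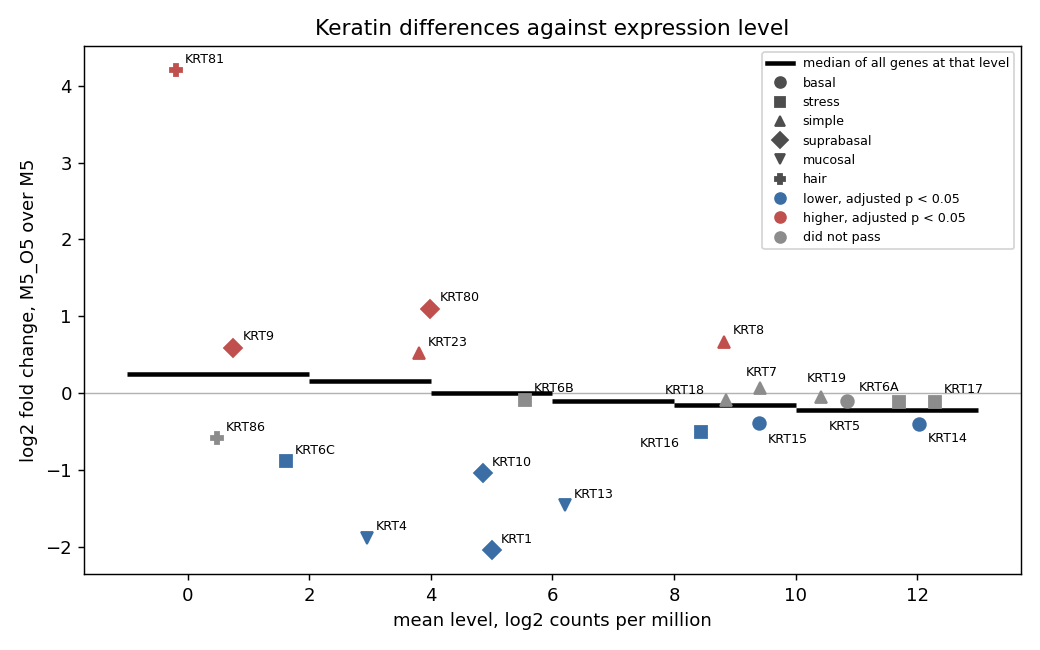
Log2 fold change of M5_O5 over M5 against mean level in log2 CPM for the tested keratins, with marker shapes for classes and colours for the test; black lines give the median of all genes in each range of level. The lines descend from 0.25 at the lowest levels to −0.22 at the highest, where KRT14 lies below the line and KRT17, KRT6A, KRT5 and KRT19 lie above it.

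Among the stress keratins, KRT16 and KRT6C were lower in M5_O5, while KRT17, KRT6A and KRT6B did not pass. KRT16, a type I keratin of hyperproliferative epidermis, stood at 281, 307, 292 and 277 CPM in M5_O5 and at 362, 447, 413 and 422 CPM in M5. All M5_O5 libraries were lower, with a log2 fold change of −0.51 (SE 0.066, edgeR adjusted p = 5.8e-05), and KRT16 passed in each of 19 alternative settings. KRT6A, its most abundant type II partner, stood at 3349, 3257, 3272 and 2900 CPM against 3354, 3773, 3327 and 3411 CPM. One M5 library fell among those of M5_O5, and the log2 fold change of −0.12 had an interval from −0.25 to 0.02 (edgeR adjusted p = 0.191). The TPM ratio of KRT16 to KRT6A was 0.135 ± 0.0083 in M5_O5 and 0.176 ± 0.011 in M5, and the libraries of the titles did not overlap.

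KRT17, a type I keratin of wounded and psoriatic epidermis and the most abundant keratin mRNA here, stood at 5080, 5034, 4988 and 4111 CPM in M5_O5 and at 4165, 6185, 5314 and 5210 CPM in M5. The lowest library of each title lay well under its other 3, and the log2 fold change was −0.12 with an interval from −0.33 to 0.09 (edgeR adjusted p = 0.393). Without M5 replicate 1 it was −0.22 and passed (edgeR adjusted p = 0.0389). The ratio of KRT17 to KRT6A was the same within its spread, at 2.49 ± 0.10 in M5_O5 and 2.49 ± 0.30 in M5. KRT6B, a less abundant copy of KRT6A, ranged from 38.0 to 52.6 CPM in M5_O5 and from 44.9 to 55.8 CPM in M5, with a log2 fold change of −0.08 (interval −0.27 to 0.10, edgeR adjusted p = 0.516). KRT6C was the weakest of the 3 copies, at 3.08, 1.61, 1.90 and 1.84 CPM in M5_O5 and 3.65, 4.83, 3.55 and 3.49 CPM in M5. The groups did not overlap, and the log2 fold change was −0.88 (SE 0.204, edgeR adjusted p = 0.00408). KRT6C differs from KRT6A at only 35 of 1695 aligned coding bases and is outnumbered by it by about 3 orders of magnitude. The KRT6C value therefore rests on how reads were divided between them. With KRT6A, KRT6B and KRT6C summed to a single gene, the log2 fold change was −0.12 (edgeR adjusted p = 0.193). The median over the 5 stress keratins was −0.12.

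The suprabasal keratins went in both directions. KRT1 and KRT10, the pair that replaces KRT5 and KRT14 when keratinocytes begin to differentiate, were lower in M5_O5, and KRT80 and KRT9 were higher. KRT1, the type II partner, stood at 16.5, 12, 10.8 and 10.9 CPM in M5_O5 and at 117, 47.0, 24.9 and 20.1 CPM in M5. Every M5 library was above every M5_O5 library, although the M5 libraries themselves spread widely. The log2 fold change was −2.04 (SE 0.434, edgeR adjusted p = 0.00227), the largest decrease among the tested keratins. KRT10, its type I partner, stood at 24.7, 14.8, 16.4 and 20.3 CPM against 77.4, 31.5, 24.4 and 24.2 CPM. M5_O5 replicate 1 lay above the 2 lowest M5 libraries, and the log2 fold change was −1.04 (SE 0.310, edgeR adjusted p = 0.0171).

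KRT13 and KRT4, the mucosal pair, were also lower in M5_O5 and spread over the libraries in a like way. KRT13, of type I, stood at 48.9, 38.8, 37.0 and 33.0 CPM in M5_O5 and at 236, 95.4, 59.0 and 45.7 CPM in M5, with a log2 fold change of −1.46 (SE 0.377, edgeR adjusted p = 0.00763). KRT4, of type II, stood at 4.53, 2.13, 3.44 and 3.33 CPM against 29.3, 11.4, 5.86 and 3.74 CPM, with a log2 fold change of −1.88 (SE 0.501, edgeR adjusted p = 0.00911). In both, the lowest M5 library fell below the highest M5_O5 library.

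All 4 of these keratins were highest in M5 replicate 1 and second highest in M5 replicate 2, and the size of their differences rested on the former, the library with the smallest total count. Without it the log2 fold changes were −1.29 for KRT1, −1.05 for KRT4, −0.76 for KRT13 and −0.49 for KRT10, and all 4 still passed, with KRT1 and KRT4 alone above 2-fold. KRT10 no longer passed without M5_O5 replicate 2 (−0.94, edgeR adjusted p = 0.0513). M5_O5 replicate 1 was likewise the highest M5_O5 library for all 4 keratins. With the replicate number as a block the log2 fold changes were −1.835 for KRT1, −1.699 for KRT4, −1.228 for KRT13 and −0.934 for KRT10. All 4 passed with that block, and KRT10 was then under 2-fold. On log2(TPM + 1) with limma, KRT10, KRT13 and KRT4 did not pass (adjusted p from 0.0798 to 0.127). A two-sided exact permutation test on CPM gave p = 0.0286 for KRT1, the smallest that 4 against 4 libraries allow, p = 0.0571 for KRT13 and KRT4 and p = 0.0857 for KRT10.

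KRT80, a type II keratin expressed in many epithelia in step with differentiation, stood at 22.4, 18.4, 23.9 and 20.3 CPM in M5_O5 and at 10.95, 11.3, 9.28 and 8.22 CPM in M5. The groups were well apart and tight, with a log2 fold change of 1.10 (SE 0.113, edgeR adjusted p = 9.1e-06), and KRT80 passed in each of 19 alternatives. Of its transcripts, NM_182507 held 64.1% ± 7.9 of KRT80 counts in M5_O5 and 54.9% ± 21.7 in M5, so no shift between transcripts exceeded the spread. KRT9, the type I keratin of palms and soles, stood at 2.33, 1.78, 1.72 and 1.60 CPM against 1.46, 0.914, 1.38 and 1.18 CPM. The groups did not overlap, yet the log2 fold change of 0.59 (SE 0.215, edgeR adjusted p = 0.0423) no longer passed with DESeq2 (adjusted p = 0.133) or in 6 of the 8 fits that left out a library. The ratio of KRT10 to KRT1 TPM was 1.78 ± 0.30 in M5_O5 and 1.03 ± 0.31 in M5, without overlap, so KRT1 was farther below its M5 level than KRT10 was.

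Among the simple epithelial keratins, KRT8 and KRT23 were higher in M5_O5, and KRT18, KRT19 and KRT7 did not pass. KRT8, the type II keratin of simple epithelia, stood at 627, 521, 572 and 499 CPM in M5_O5 and at 306, 386, 348 and 354 CPM in M5. The lowest M5_O5 library exceeded the highest M5 library by over 100 CPM. Its log2 fold change was 0.67 (SE 0.081, edgeR adjusted p = 3.115e-05), and it passed in each of 19 alternatives. KRT18, the type I keratin with which KRT8 forms filaments, stood at 424, 465, 475 and 447 CPM against 405, 491, 523 and 498 CPM. The log2 fold change of KRT18 was −0.08 with an interval from −0.23 to 0.06 (edgeR adjusted p = 0.401), and without M5 replicate 1 it was −0.16 and passed (edgeR adjusted p = 0.0279). The ratio of KRT8 to KRT18 TPM was accordingly 1.11, 0.833, 0.900 and 0.834 in the M5_O5 libraries and 0.565, 0.587, 0.498 and 0.530 in the M5 libraries. The leading KRT8 transcript, NM_002273, held 97.8% ± 0.20 of KRT8 counts in M5_O5 and 98.9% ± 0.47 in M5.

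KRT19, a type I keratin without a tail domain that pairs with KRT8 in many epithelia, stood at 1332, 1402, 1401 and 1247 CPM in M5_O5 and at 1233, 1564, 1385 and 1372 CPM in M5, with full overlap. Its log2 fold change was −0.05 (interval −0.19 to 0.10, edgeR adjusted p = 0.657), and with the dependence on level removed it was 0.16 and passed (edgeR adjusted p = 0.0390). KRT7, a type II keratin of glandular epithelia, ranged from 649 to 759 CPM in M5_O5 and from 569 to 728 CPM in M5, with a log2 fold change of 0.07 (interval −0.08 to 0.21, edgeR adjusted p = 0.523). KRT7 passed as higher on both TPM scales, with scaling by library size alone and with the dependence on level removed, at 0.18 to 0.24. KRT23, a type I keratin first described in glandular cells, stood at 16.3, 17.1, 15.3 and 16.2 CPM in M5_O5 and at 11.2, 12.6, 11.5 and 10.03 CPM in M5. No library crossed over, and the log2 fold change was 0.52 (SE 0.089, edgeR adjusted p = 0.000487). The median over the 5 tested simple keratins was 0.07.

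**Figure D4:**
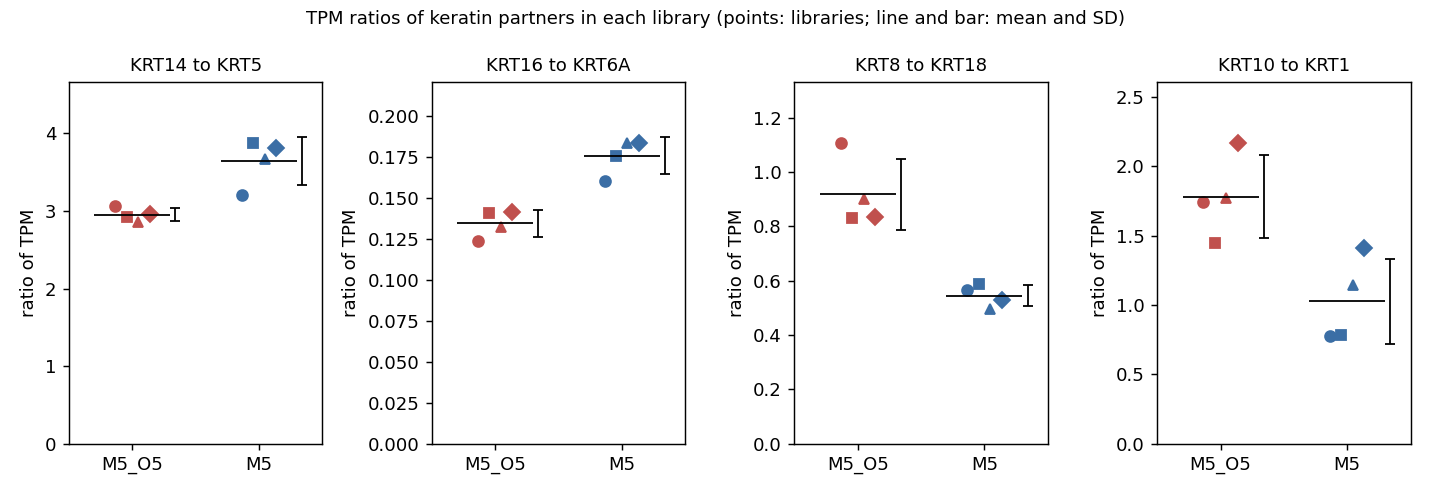
Ratio of the TPM of keratins that pair in filaments, in each library; points are libraries with shapes for replicate numbers, and the line and bar give the mean and SD of 4 libraries. The KRT14 to KRT5 and KRT16 to KRT6A ratios were lower in M5_O5, at 2.95 against 3.64 and 0.135 against 0.176, and the KRT8 to KRT18 and KRT10 to KRT1 ratios were higher, at 0.919 against 0.545 and 1.78 against 1.03, with no overlap in any panel.

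Only KRT81 and KRT86, both type II keratins of the hair cortex, had enough counts among the hair and follicle keratins. KRT81 had 29, 21, 22 and 21 counts in the M5_O5 libraries and 2, 0, 1 and 1 in the M5 libraries. The summed counts of 93 and 4 gave a ratio of 20.5 after scaling, with an exact 95% binomial interval from 7.75 to 76.85 that covers counting error only. KRT81 met the filter on counts through the M5_O5 libraries alone, so no test is read from it, and the fitted log2 value was 4.21 with edgeR and 1.15 with limma on log2(TPM + 1). At 1.38 ± 0.26 TPM in M5_O5, KRT81 was nevertheless among the least abundant of the tested keratins. KRT86 stood at 0.988, 0.919, 0.948 and 1.25 CPM in M5_O5 and at 1.10, 1.57, 2.04 and 1.43 CPM in M5, with a log2 fold change of −0.59 (interval −1.04 to −0.13, edgeR adjusted p = 0.0640). KRT86 passed without M5 replicate 1 (−0.71, edgeR adjusted p = 0.0235) and with the dependence on level removed (−0.89, edgeR adjusted p = 0.0136). The genes share much of their sequence, as the identity above shows, and KRT81 lies within the span of KRT86 on the opposite strand, with 0 exonic bases in common.

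Within the pool of keratin mRNA, basal keratins held a smaller share and simple keratins a larger share in M5_O5, as values without a test. Basal keratins made up 32.8%, 32.2%, 32.2% and 32.7% of keratin TPM in the M5_O5 libraries and 39.7%, 35.1%, 35.2% and 35.4% in the M5 libraries. Simple keratins made up 20.01%, 20.3%, 20.7% and 21.4% against 16.5%, 17.3%, 18.2% and 18.1%. Neither class overlapped between titles, and the differences in means were −3.86 and 3.098 percentage points. Without M5 replicate 1 they were −2.75 and 2.78 points. Of the basal keratins KRT14 alone was apart in TPM, at 4097 to 5057 in M5_O5 and 5106 to 5723 in M5. KRT5, at 1383 to 1651 and 1372 to 1784 TPM, and KRT15, at 628 to 703 and 686 to 1055 TPM, overlapped. With the dependence on level removed, the change of KRT14 did not pass (−0.16, edgeR adjusted p = 0.0894). Stress keratins, at 46.5% ± 0.75 and 45.2% ± 2.4, overlapped. Suprabasal keratins were a trace of the pool, at 0.187% ± 0.030 in M5_O5 and 0.359% ± 0.278 in M5, and overlapped as well. The TPM ratio of all type I to all type II keratins was 2.61 ± 0.069 in M5_O5 and 3.01 ± 0.19 in M5, without overlap. Of the 10 tested type I keratins 5 were lower and 2 were higher, and of the 11 of type II 3 were lower and 3 were higher, KRT81 among them, beside 17.6% lower and 19.5% higher of all genes.

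**Figure D5:**
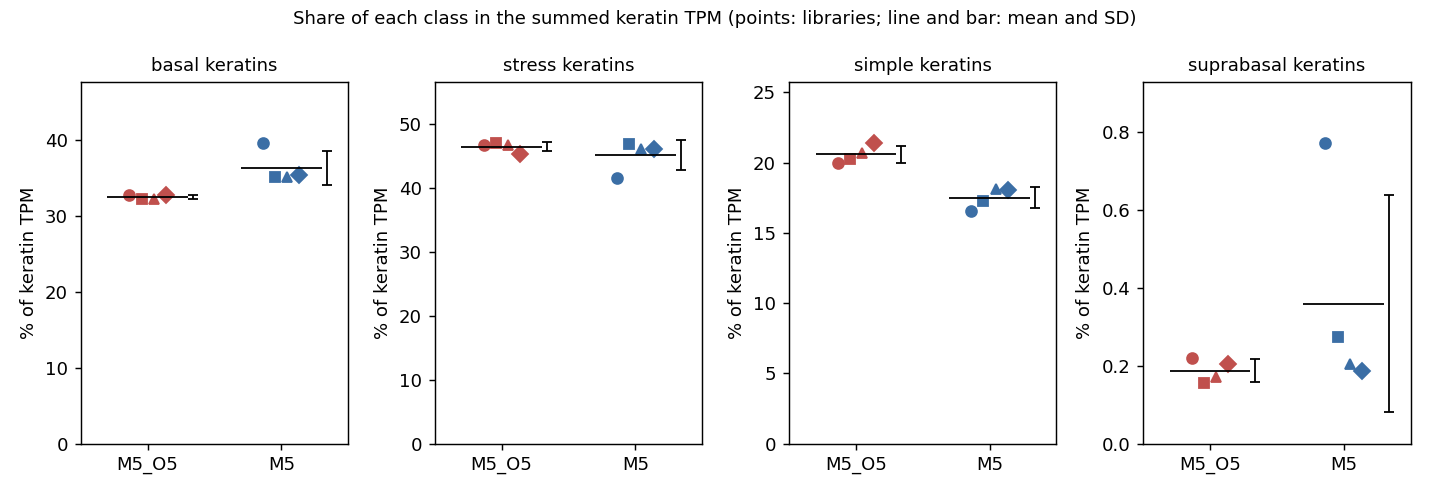
Share of basal, stress, simple and suprabasal keratins in the summed keratin TPM of each library; points are libraries with shapes for replicate numbers, the line and bar give mean and SD of 4 libraries, and each panel has its own scale from 0. Basal shares were 32.5% ± 0.31 in M5_O5 and 36.3% ± 2.2 in M5, simple shares were 20.6% ± 0.62 and 17.5% ± 0.76, and in the stress and suprabasal panels M5 replicate 1 stands apart.

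Upstream sequence was at hand for 29 of the 49 keratins, in windows of 250 bases before to 50 after the RefSeq start (GRCh38.p14). The letters TATAAA, the core of the TATA box, occurred on either strand in 16 of these 29 windows (55.2%), against 11.9% of 27305 windows of all genes. TGANTCA, read by AP-1 factors, occurred in 0 of 29 (7.76% of all windows), GCCNNNGGC, read by AP-2 factors, in 5 (17.2%, against 23.0%), and TTCNNNGAA, read by STAT factors, in 2 (6.90%, against 7.88%). Only 5 tested keratins had a window, and that of KRT8 starts far from its leading transcript and is not shown. The other 4 are printed as the 100 bases before the start, because they cover keratins that were lower together with their partners (KRT10, KRT4), one that was higher (KRT9) and one that did not pass (KRT5). The RefSeq starts of KRT4 and KRT5 lay 435 and 293 bases from the GENCODE start of their leading transcript. They are read 5′ to 3′ on the minus strand, with TATAAA in capitals, at chr17:40822615-40822714, chr12:52814117-52814216, chr17:41572060-41572159 and chr12:52520395-52520494 in the order given.
KRT10: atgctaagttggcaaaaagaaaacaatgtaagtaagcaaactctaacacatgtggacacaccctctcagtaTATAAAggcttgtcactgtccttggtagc
KRT4: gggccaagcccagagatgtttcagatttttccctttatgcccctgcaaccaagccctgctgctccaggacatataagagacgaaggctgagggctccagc
KRT9: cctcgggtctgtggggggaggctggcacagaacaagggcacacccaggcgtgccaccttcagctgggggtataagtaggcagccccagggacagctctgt
KRT5: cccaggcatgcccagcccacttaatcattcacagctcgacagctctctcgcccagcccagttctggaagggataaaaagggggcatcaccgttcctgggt
Of the 4, KRT10 alone held TATAAA. A match in letters is a description of the sequence, and binding was not measured.

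Of 14 partners of keratin filaments, such as desmosomal plaque proteins and filament linkers, 8 were lower and 1 was higher (17.6% and 19.5% of all genes), with a median log2 fold change of −0.26. Limma on log2(TPM + 1) called 5 lower and 1 higher, beside 761 lower and 3261 higher of all 12434 genes. The largest decreases were those of PKP1, a desmosomal plakophilin (−0.50, SE 0.072, edgeR adjusted p = 0.000139), PLEC, the plectin that ties filaments to junctions (−0.35), and JUP, plakoglobin (−0.32). FLG, the filaggrin that bundles keratin filaments in the cornified layers, was the higher member, at 15.4, 15.0, 16.3 and 13.3 CPM in M5_O5 and 12.9, 9.47, 8.62 and 9.28 CPM in M5 (0.58, SE 0.119, edgeR adjusted p = 0.0018). The 8 lower partners lie at a log2 CPM of 7.35 to 11.18, with PKP1, PLEC and JUP at 9.72 to 10.96. Over the ranges of level from 6 upward, 35.21% to 52.0% of all genes were lower, with median log2 fold changes of −0.103 to −0.222. The part of this trend in the values and in the number of lower partners was not tested, and nothing is read from that number.

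Of 16 other intermediate filament genes 9 were tested with edgeR, and 5 were higher and 0 lower (19.5% and 17.6% of all genes). Numbers were the same at an unadjusted p under 0.05 and with limma on log2(TPM + 1). Of all 12434 genes, limma on that scale called 3261 higher and 761 lower. NEFL, a neurofilament subunit, stood at 1.12, LMNB1, the nuclear lamin B1, at 0.87 and SYNC, syncoilin, at 0.71 on the log2 scale. NEFL had 22, 18, 26 and 21 counts in M5_O5 and 17, 4, 6 and 8 in M5, and the groups overlapped in CPM. It needed the M5_O5 libraries, where it is high, to meet the filter on counts, so no test is read from it. The higher genes other than LMNB2 lie at a log2 CPM of 0.1 to 2.53, where 24.8% to 28.96% of all genes were higher and 3.68% to 6.16% lower. LMNB2, the nuclear lamin B2 (0.37, SE 0.076, edgeR adjusted p = 0.0018), lies at 6.22, where 9.09% were higher and 35.21% lower. The part of this dependence on level in the number of higher genes was not tested, and nothing is read from that number. VIM, the vimentin of mesenchymal cells, had at most 10 counts in a library and was not tested with edgeR, while DESeq2, run on more genes, called it as its 1 lower member. Of 14 transcription factors known to act on keratin genes, 5 were lower and 0 were higher with edgeR and with DESeq2, at adjusted and unadjusted p under 0.05 (17.6% and 19.5% of all genes with edgeR), with a median of −0.13. Limma on log2(TPM + 1) called 2 lower and 0 higher, with 2 higher at an unadjusted p under 0.05. The largest decreases were those of ZNF750, a factor of terminal differentiation (−0.58, SE 0.120), TP63, the master factor of basal keratinocytes (−0.29, SE 0.053), and STAT3, which carries the signal of several M5 cytokines (−0.21, SE 0.052). TP63 and STAT3 lie at a log2 CPM of 9.34 and 9.28, where 46.6% of all genes were lower, with a median log2 fold change of −0.159. ZNF750 lies at 2.52, where 6.16% were lower. The part of this trend in their values was not tested. KLF4, a factor of barrier formation, did not pass, at 0.06 (interval −0.07 to 0.20). Among 8 genes of keratinocyte differentiation 4 were tested, and 1 was lower and 0 were higher (17.6% and 19.5% of all genes). The lower gene was IVL, the involucrin of the cornified envelope. IVL stood at 12.3, 12.6, 14.2 and 11.9 CPM in M5_O5 and at 22.9, 23.8, 19.6 and 19.7 CPM in M5 (−0.75, SE 0.092, edgeR adjusted p = 3.7e-05). IVL did not show the wide spread over M5 libraries that KRT1, KRT10, KRT13 and KRT4 had.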

How the data were processed

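The authors filtered reads, mapped them with HISAT2 and quantified transcripts with StringTie, as their methods state, whereas the submitters' processing notes list HISAT2 2.1.0, Bowtie2 2.2.5 and RSEM 1.2.8. The notes name a mouse build, although the identifiers are human RefSeq ones, so no positions from the files are given. The deposited table holds an estimated count, not normalized, for 86639 transcripts per library, with the deposited TPM and FPKM values, both scaled by length and library size. FPKM served only for class shares, which it gives as TPM does by construction. Estimated counts, 53.8% of them fractional, were summed to 17131 genes and rounded. Symbols of 17072 genes came from RefSeq.

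Genes were filtered with filterByExpr, scaled by TMM and tested with the quasi-likelihood test of edgeR 4.0.16 (R 4.3.3), with 12434 genes tested. Libraries were grouped by title. Members, classes and gene lists were chosen with earlier results of these data known. Every tested keratin was named, and from other lists the 3 largest passing changes in each direction. KLF4, VIM and LMNB2 were named after their values were seen. Shares and ratios came from TPM and carry no test. On simulated counts edgeR recovered 198 of 200 changed genes among 12434 and called 13 unchanged ones. The changes put in had a median fitted size of 1.50 in log2, larger than those of most keratins. No trend on level and no distant library were put in, so recovery of smaller changes or under those conditions was not tested. Replicates differed by more than counting noise. Intervals of fold changes are normal ones from the SE. Alternatives were DESeq2 1.42.0, limma 3.58.1 on log2(TPM + 1) and log2(TPM + 0.1), other scalings and filters, removal of the trend on level, the replicate number as a block, the first placement of each transcript alone, KRT6 copies summed and each library left out. KRT23 is listed at 2 placements with equal values, both summed here. Further coding sequence is not reported here.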

Additional observations from a re-analysis of the deposited data

Results flagged for a closer look

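Among 50 groups of 4 libraries, 9 held a library whose distance from its nearest neighbour was large for the range of its group, where chance alone gives about 2.5. M5 replicate 1 stood apart in 4 of them, with KRT10 at 77.4 CPM beside 24.2 to 31.5 in the other M5 libraries, a basal share of 39.7% of keratin TPM beside 35.1% to 35.4%, a suprabasal share of 0.772% beside 0.185% to 0.272%, and a stress share of 41.6% beside 46.1% to 46.9%. M5 replicate 2 was the highest M5 library for KRT14, at 5217 CPM beside 4582 to 4653, for KRT6B, at 55.8 CPM beside 44.9 to 46.5, and for KRT6C, at 4.83 CPM beside 3.49 to 3.65. M5_O5 replicate 4 was the lowest of its title for KRT17, at 4111 CPM beside 4988 to 5080, and for KRT5, at 1594 CPM beside 1833 to 1859. The cause of these distances was not tested.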

How the results depend on the processing

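Of 396 recomputed fold changes of single keratins, 344 kept direction and side of the threshold, 20 no longer passed, 8 came to pass and 24 turned sign. KRT1, KRT16, KRT23, KRT8 and KRT80 passed in 19 of 19 alternatives and KRT6C in 18 of 18, while the fitted value of KRT81 moved from 4.21 to 1.15 on log2(TPM + 1) and 3.18 on log2(TPM + 0.1). Values that turned sign were all of keratins that did not pass by the main test. With scaling by library size alone, which moved the median of all genes to 0.13, they were 0.00 for KRT17, 0.035 for KRT18, 0.073 for KRT19, 0.016 for KRT5 and 0.034 for KRT6B. With limma on log2(TPM + 1), with a median of all genes of 0.12, they were 0.013 for KRT17, 0.047 for KRT18, 0.082 for KRT19, 0.027 for KRT5, 0.007 for KRT6A and 0.036 for KRT6B, and on log2(TPM + 0.1), with a median of 0.14, KRT6B was at 0.037 and the other 5 were the same to 3 decimals. With the trend on level removed they were 0.132 for KRT17, 0.077 for KRT18, 0.155 for KRT19, 0.105 for KRT5 and 0.111 for KRT6A. With each library left out in turn KRT7 ranged from −0.005 to 0.109 and KRT19 from −0.099 to 0.016. Limma on either TPM scale called 4 keratins lower in place of 8, and 761 and 768 of all genes in place of 2192. Library size alone gave 1008 genes lower and 3858 higher, against 2192 and 2420. Same-numbered libraries of the titles had correlations of their deviations of 0.21, 0.10, 0.00 and 0.01, so the numbers were not taken to pair the libraries, and only some libraries correlated best with their own number. With the replicate block 8 keratins were lower and 5 were higher, as without it, and 2552 and 2703 of all genes. Leaving out a library or counting the first placement alone moved no class share difference by more than its spread, although that of stress keratins went from 1.31 to 0.114 points and that of suprabasal keratins from −0.17 to −0.034 without M5 replicate 1. Shares from FPKM equal those from TPM by construction. At this depth 28 keratins could not be tested, and KRT81, KRT86, KRT9 and KRT6C rest on under 100 counts per library.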
